A study of Mus musculus with 6 samples.

Results

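The eosinophil recruitment and granule genes are 9 mouse genes: the chemokines Ccl11 and Ccl24, their receptor Ccr3, the cytokine Il5 and its receptor chain Il5ra, the surface lectin Siglecf, and the granule protein genes Epx, Prg2 and Rnase2a. They were chosen by name, and each is read from the array probe set whose platform annotation gives that symbol alone. All 9 were measured, each by 1 probe set, among 19935 genes with a single symbol. The study compared whole lung of Scnn1b-Tg mice (3 arrays) with whole lung of wild-type mice (WT, 3 arrays), all of the C57BL/6 background and with no treatment named. The stated aim was a search for candidate genes of emphysema, in which alveolar walls are destroyed. Scnn1b is the gene of a subunit of the epithelial sodium channel, ENaC. As background, the promoter of the club cell secretory protein gene drives the transgene in the published line, which directs it to airway epithelium. The labels used here give no promoter, age or sex, and do not say whether each sample was 1 animal, so p-values rest on the spread among samples, which may be technical.

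Eosinophils are granulocytes made in bone marrow under IL-5 and drawn into tissue by the eotaxins CCL11 and CCL24, which bind CCR3 on their surface. Their granules hold major basic protein, eosinophil peroxidase and ribonucleases, toxic to parasites and to airway epithelium. They are best known in the lung from asthma and helminth infection. In the mouse several of these genes are not limited to eosinophils: alveolar macrophages carry Siglec-F, macrophages make CCL24, fibroblasts, smooth muscle and epithelium make CCL11, and alternatively activated macrophages make the ribonuclease of Rnase2a. In whole-lung RNA, a change in the number of cells of a type and a change in RNA per cell cannot be told apart.

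The sequence before the transcription start is shown for 3 genes. Both eosinophil receptor genes, Ccr3 and Il5ra, hold AGATAA there, a form of the GATA motif. Rnase2a, the member with the largest fold change, holds neither AGATAA nor TGATAA. In all, 2 of the 6 windows searched hold AGATAA or TGATAA and 4 (Rnase2a, Il5, Siglecf and Epx) hold neither. Other forms, such as AGATAG, were not searched. AGATAG is in the Ccr3 window and, on the opposite strand, in that of Il5, so these counts do not set the receptor genes apart. Each window is the 250 bases up to the start, 5′ to 3′ on the gene's strand, from RefSeq promoters on GRCm38.p6, in which 6 of the 9 genes matched. Capitals mark AGATAA, found by searching AGATAA and TGATAA on both strands.
Ccr3 (chr9:124021721-124021970, plus strand): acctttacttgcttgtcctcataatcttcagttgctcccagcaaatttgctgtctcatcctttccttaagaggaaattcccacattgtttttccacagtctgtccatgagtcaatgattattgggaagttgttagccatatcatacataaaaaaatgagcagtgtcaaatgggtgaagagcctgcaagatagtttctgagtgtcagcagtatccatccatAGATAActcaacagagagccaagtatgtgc
Il5ra (chr6:106749038-106749287, minus strand): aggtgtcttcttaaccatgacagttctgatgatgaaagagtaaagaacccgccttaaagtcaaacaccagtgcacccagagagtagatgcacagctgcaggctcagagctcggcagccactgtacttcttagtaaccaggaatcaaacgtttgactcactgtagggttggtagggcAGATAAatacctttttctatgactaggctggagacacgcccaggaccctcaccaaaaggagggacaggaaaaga
Rnase2a (chr14:51256113-51256362, minus strand): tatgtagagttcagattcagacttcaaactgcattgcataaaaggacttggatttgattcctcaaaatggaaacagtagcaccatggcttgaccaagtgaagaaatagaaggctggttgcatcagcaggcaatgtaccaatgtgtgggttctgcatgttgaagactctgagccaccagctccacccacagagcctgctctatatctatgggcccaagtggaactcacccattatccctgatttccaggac
AGATAA lies 30 to 25 bases before the start of Ccr3 and 74 to 69 bases before that of Il5ra. GATA-1 is a transcription factor of the eosinophil lineage. AGATAA or TGATAA is in 16.6% of the 32851 mouse promoter windows of this length, so a match is a description of the letters only. The STAT motifs TTCNNNNGAA and TTCNNNGAA, searched on both strands, are in none of the 6 windows and in 5.85% and 7.02% of all windows. Of the other letters, also searched on both strands, TATAAA is in the Epx window alone (12.4% of all windows). TTNNGCAA is in that of Rnase2a alone (9.56%), on the opposite strand, where the printed window reads ttgcataa.

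Scnn1b, the gene of the transgene, had 1405, 1527 and 1333 intensity units on the Scnn1b-Tg arrays, against 172, 108 and 139 on the WT arrays. It rose with a log2 fold change of 3.37 ± 0.16 (SE; limma adjusted p = 0.00241). It was the only gene called at an adjusted p under 0.05, or 0.00502% of genes tested. Array medians lay between 47.6 and 48.5, so the arrays had similar overall brightness, and the lowest value on any array lay between 18.3 and 18.6. In the first 2 principal components, which held 34.0% and 22.6% of the variance, WT replicate 2 stood apart on the first and Scnn1b-Tg replicate 3 on the second. All 9 airway epithelium markers of the lists used here averaged over 25 units.

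None of the 9 eosinophil genes passed the adjusted threshold in limma, and 7 had an unadjusted p under 0.05, all higher in Scnn1b-Tg lung, against 3.96% of all genes called higher at that p. For 7 of the 9 genes the Scnn1b-Tg arrays lay wholly above the WT arrays, against 6.26% of all genes. The difference from WT was at least 2-fold for 2 of them, Rnase2a and Ccr3, against 0.0702% of all genes. All 9 had a positive log2 fold change, as did 53.2% of all genes. The median of the 9 was 0.41, beside 0.0052 over all genes tested. Since the genes were chosen with earlier results of these data known, these counts describe them and are not independent evidence of a direction. A difference of all 3 arrays against all 3 cannot give an exact permutation p below 0.1, two-sided, and the 7 separated genes each gave that smallest value.

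**Figure D1:**
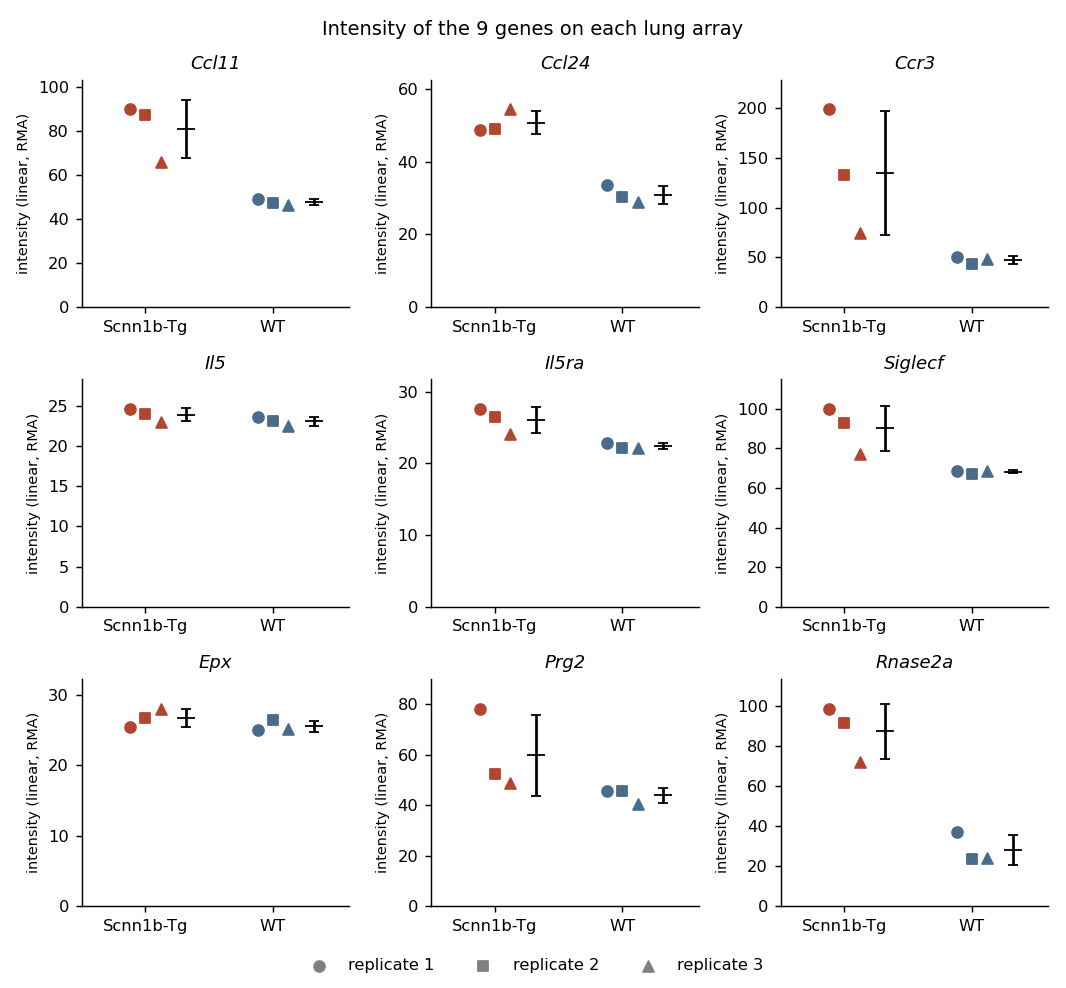
Intensity on a linear scale (y axis, from 0, a separate scale for each gene) on each array of Scnn1b-Tg and WT lung, with marker shape for the replicate number and the bar for mean ± SD of 3 arrays. Ccl11, Ccl24, Ccr3, Il5ra, Siglecf, Prg2 and Rnase2a have no overlap between genotypes, while Il5 and Epx overlap.

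Both eotaxin genes were higher in Scnn1b-Tg lung. The WT arrays differed by 1.05-fold for Ccl11 and by 1.16-fold for Ccl24, whose Scnn1b-Tg arrays differed by 1.12-fold. Ccl24, which encodes eotaxin-2, had intensities of 48.7, 49.0 and 54.4 on the Scnn1b-Tg arrays, against 33.6, 30.2 and 28.9 on the WT arrays. Its lowest Scnn1b-Tg array was 1.45 times its highest WT array. The means were 50.7 ± 3.18 in Scnn1b-Tg and 30.9 ± 2.45 in WT lung (SD, n = 3 each). On the log2 scale the difference was 0.72 ± 0.07 (SE), that is 1.64-fold with a 95% interval of 1.46 to 1.85, and the adjusted p was 0.109 in limma. Only 2 of the 19935 genes had a smaller p-value. The size depends on the floor of the deposited values: with 16 subtracted from every intensity the log2 fold change was 1.23.

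Ccl11, the gene of eotaxin-1, had 89.7, 87.0 and 65.7 units on the Scnn1b-Tg arrays, against 49.0, 47.3 and 46.5 on the WT arrays. The WT arrays lay within 1.05-fold of each other and the Scnn1b-Tg arrays within 1.37-fold, with Scnn1b-Tg replicate 3 the nearest to WT. The means were 80.8 ± 13.2 in Scnn1b-Tg and 47.6 ± 1.27 in WT lung (SD, n = 3 each), 1.68-fold apart (95% interval 1.39 to 2.04). The log2 fold change was 0.75 ± 0.12 (SE; limma adjusted p = 0.169). Leaving out 1 array changed the call of Ccl11: without Scnn1b-Tg replicate 3 the log2 fold change was 0.89 and the adjusted p 0.0173, where 0.0251% of all genes were called higher. It also passed without both WT replicate 2 and Scnn1b-Tg replicate 3, where 0.0301% were called higher. Fibroblast and smooth muscle markers, cells that make CCL11, summed to 7033 to 7632 units on the Scnn1b-Tg arrays and to 5896 to 8195 on the WT arrays. Of those 11 markers 7 were higher and 0 lay wholly above WT, against 53.2% and 6.26% of all genes. The largest log2 fold changes were 0.30 ± 0.16 (SE) for the collagen gene Col1a1, 0.17 ± 0.17 for Col1a2 and 0.14 ± 0.21 for the smooth muscle actin gene Acta2.

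Ccr3, the eotaxin receptor of eosinophils, was the most variable of the 9 genes within Scnn1b-Tg lung. Its intensity was 199, 133 and 74.4 on Scnn1b-Tg replicates 1, 2 and 3, against 50.9, 42.9 and 48.5 on the WT arrays. The Scnn1b-Tg arrays differed by 2.68-fold among themselves and the WT arrays by 1.19-fold, and the lowest Scnn1b-Tg array was still 1.46 times the highest WT array. The means were 135 ± 62.4 in Scnn1b-Tg and 47.4 ± 4.08 in WT lung (SD, n = 3 each). On the log2 scale they differed by 1.40 ± 0.32 (SE), that is 2.65-fold, with a wide 95% interval of 1.57 to 4.46 and an adjusted p of 0.407. Without Scnn1b-Tg replicate 1 it was 1.07 and without replicate 3 it was 1.78. By log2 fold change Ccr3 ranked 9 of all genes from the top, but by p-value 154.

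The IL-5 axis gave small values on dim probe sets. Il5, the cytokine that eosinophils need to mature and survive, had 24.6, 24.0 and 23.0 units on the Scnn1b-Tg arrays, against 23.5, 23.1 and 22.4 on the WT arrays. The groups overlapped, and 12.7% of genes were dimmer. The log2 fold change was 0.05 ± 0.05 (SE; limma adjusted p = 0.946), and its 95% interval ran from 0.959-fold to 1.12-fold on the deposited scale.

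Il5ra, the IL-5 binding chain of the receptor on eosinophils, had 27.6, 26.5 and 24.0 units on the Scnn1b-Tg arrays, against 22.9, 22.1 and 22.1 on the WT arrays. The groups did not overlap, but the lowest Scnn1b-Tg array was only 1.05 times the highest WT array, and 14.3% of genes were dimmer. The log2 fold change was 0.22 ± 0.06 (SE), or 1.16-fold (limma adjusted p = 0.575). For such dim probe sets the size depends on the floor of the deposited values. With 16 subtracted from every intensity the log2 fold change of Il5ra was 0.64 and that of Il5 0.16. That of Epx, which did not count as dim, was 0.17 with the same subtraction.

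Siglecf, a sialic acid binding lectin of mouse eosinophils and alveolar macrophages, had 99.9, 92.9 and 77.3 units on the Scnn1b-Tg arrays, against 68.5, 67.2 and 68.8 on the WT arrays. The WT arrays lay within 1.02-fold of each other and all Scnn1b-Tg arrays were above them. The means were 90.03 ± 11.6 in Scnn1b-Tg and 68.1 ± 0.835 in WT lung (SD, n = 3 each), 1.31-fold apart, or 0.39 ± 0.09 (SE) on the log2 scale (limma adjusted p = 0.433). Of the 12 alveolar macrophage markers measured 9 were higher in Scnn1b-Tg lung and 4 lay wholly above WT, against 53.2% and 6.26% of all genes. Beside a median log2 fold change of 0.0052 over all genes, that of the 12 markers was 0.12. Their summed intensity was 3919 to 4444 on the Scnn1b-Tg arrays and 2391 to 2700 on the WT arrays, and most of that difference was Chil3, a chitinase-like protein with a mean of 2428 in Scnn1b-Tg and 963 in WT lung. Fabp4, a fatty acid binding protein, gave a log2 fold change of 0.76 ± 0.36 (SE) and Itgax, the CD11c chain, 0.53 ± 0.08. Fabp4 was highest on Scnn1b-Tg replicate 3 and overlapped between genotypes. Marco, a scavenger receptor of alveolar macrophages, gave 0.01 ± 0.12 and Car4, a carbonic anhydrase also of capillary endothelium, -0.06 ± 0.10 (log2 fold change ± SE), both chosen after their values were seen. The part of these cells in the values of Siglecf was not tested.

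**Figure D2:**
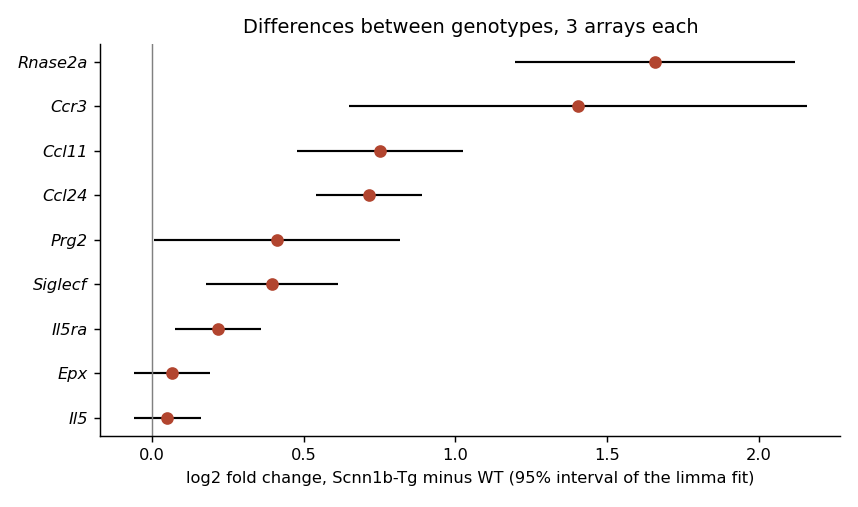
Log2 fold change of Scnn1b-Tg minus WT for each gene (points) with its 95% interval from the limma fit (lines), 3 arrays per genotype. Rnase2a (1.66) and Ccr3 (1.40) lie farthest right, and the intervals of Il5 and Epx include 0.

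The 3 granule protein genes had log2 fold changes of 1.66 (Rnase2a), 0.41 (Prg2) and 0.07 (Epx), and the differences between them were not tested. Rnase2a encodes an eosinophil-associated ribonuclease and had the largest fold change of the 9 genes. Its intensity was 98.8, 91.4 and 72.2 on the Scnn1b-Tg arrays, against 37.0, 23.4 and 24.0 on the WT arrays. The lowest Scnn1b-Tg array was 1.95 times the highest WT array, the widest gap of the 9 genes. The means were 87.5 ± 13.7 in Scnn1b-Tg and 28.1 ± 7.66 in WT lung (SD, n = 3 each), 3.16-fold apart with a 95% interval of 2.29 to 4.35. The log2 fold change was 1.66 ± 0.20 (SE; limma adjusted p = 0.109), rank 6 from the top among all genes. Since the WT values lie close to the floor, the fold and its interval hold for the deposited scale only, and with 16 subtracted from every intensity the log2 fold change was 2.71.

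Prg2, the gene of major basic protein, had 78.2, 52.3 and 48.6 units on the Scnn1b-Tg arrays, against 45.7, 45.6 and 40.5 on the WT arrays. Most of the difference came from Scnn1b-Tg replicate 1, while replicates 2 and 3 lay close above WT. The log2 fold change was 0.41 ± 0.17 (SE; limma adjusted p = 0.822), and without that array it was 0.20. Epx, the gene of eosinophil peroxidase, had 25.4, 26.7 and 28.0 units on the Scnn1b-Tg arrays, against 24.96, 26.4 and 25.1 on the WT arrays. The genotypes overlapped, 18.5% of genes were dimmer, and the log2 fold change was 0.07 ± 0.05 (SE; limma adjusted p = 0.932), with a 95% interval from 0.960-fold to 1.14-fold.

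Close relatives of Rnase2a and Prg2 that were measured, whose probes can share sequence, had smaller log2 fold changes than either gene. Rnase2b, of the same ribonuclease family, had 27.2, 34.6 and 25.3 units on the Scnn1b-Tg arrays, against 23.7, 23.6 and 24.9 on the WT arrays, a log2 fold change of 0.26 ± 0.11 (SE; limma adjusted p = 0.822). The groups did not overlap, by a narrow margin. Ear6 of that family gave 0.21 ± 0.14 and Ear14 0.01 ± 0.04, and Prg3, the second major basic protein gene, gave -0.0017 ± 0.07. Ear14, at 20.4 to 21.6 units, and Rnase2b on the WT arrays lay under 25 units, where the size of a fold change depends on the floor. Ear1, Ear2 and Ear10 were not measured. The fold change of Rnase2a was larger than those of the other 3 ribonuclease family genes measured, a difference that was not tested. Whether Rnase2a alone was raised in the family was therefore not settled.

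**Figure D3:**
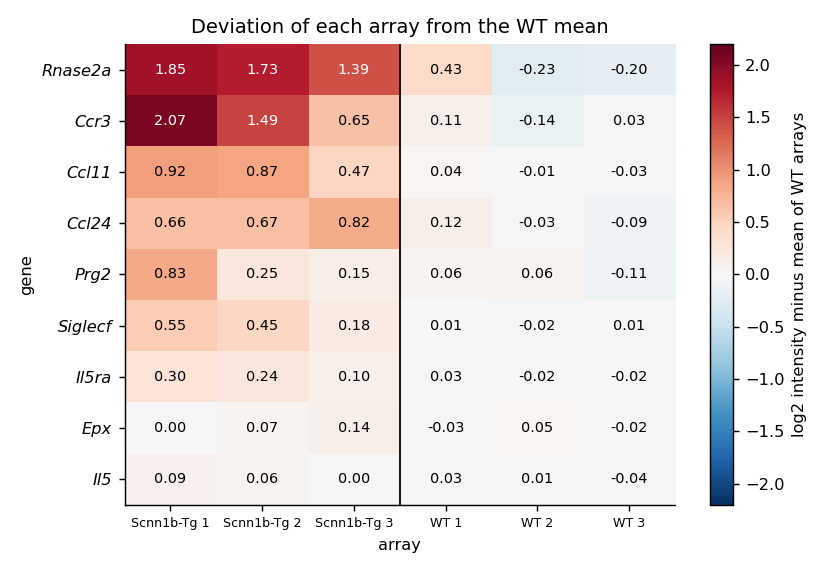
Log2 intensity of each gene (rows) on each array (columns) minus the mean of the 3 WT arrays, red above and blue below that mean. Ccr3 reaches 2.07 on Scnn1b-Tg replicate 1 and 0.65 on replicate 3, while Ccl24 lies between 0.66 and 0.82 on all 3 Scnn1b-Tg arrays.

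Across the Scnn1b-Tg arrays, 7 of the 9 genes were highest on replicate 1 and lowest on replicate 3: Ccl11, Ccr3, Il5, Il5ra, Siglecf, Prg2 and Rnase2a. Among all genes 17.9% had that order. Ccl24 and Epx had the opposite order, as did 21.6% of all genes. On Scnn1b-Tg replicate 1 the log2 deviation from the WT mean was 2.07 for Ccr3, 1.85 for Rnase2a, 0.92 for Ccl11 and 0.83 for Prg2. On replicate 3 these were 0.65, 1.39, 0.47 and 0.15. Other markers also differed between these arrays. The neutrophil gene Retnlg had 562, 331 and 245 units on Scnn1b-Tg replicates 1, 2 and 3, against 189, 94.4 and 145 on the WT arrays. It was not typical of its list: of 11 neutrophil markers 3 were highest on Scnn1b-Tg replicate 1 and 7 on replicate 3, among them S100a8 with 54.4, 56.9 and 74.5 units on Scnn1b-Tg replicates 1, 2 and 3, against 67.0, 63.1 and 64.3 on the WT arrays. Retnlg and S100a8 were chosen here after their values were seen. The red cell gene Alas2 had 239, 325 and 386 units on Scnn1b-Tg replicates 1, 2 and 3, against 420, 425 and 438 on the WT arrays. Slc4a1, the other red cell gene measured, had 73.2, 101 and 127 units on Scnn1b-Tg replicates 1, 2 and 3, against 102, 103 and 112 on the WT arrays. The part of these cells in the order of the eosinophil genes was not tested.

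Only Ccr3 and Rnase2a spanned over 1 on the log2 scale across the 6 arrays, and for these the 5 genes of most similar pattern were taken by Pearson's r among the 102 genes that also spanned over 1. These values describe 6 arrays that share the genotype difference. Closest to Ccr3 were Ncf1, a subunit of the phagocyte NADPH oxidase (r = 0.994), Gapt, a GRB2-binding membrane adaptor (0.989), F5, coagulation factor V (0.972), Aqp9, an aquaglyceroporin (0.971), and Adgre1, the F4/80 antigen of macrophages and eosinophils (0.969). Gapt had 137, 118 and 74.7 units on the Scnn1b-Tg arrays, against 49.2, 41.2 and 48.4 on the WT arrays. Like Ccr3 it was lowest on Scnn1b-Tg replicate 3 among the transgenic arrays and lowest on replicate 2 among the WT arrays. Since Gapt was taken for its r to Ccr3, this shared order is not separate evidence. Closest to Rnase2a were Slc26a4, the anion exchanger pendrin (r = 0.985), Scnn1b itself (0.977), Chil3 (0.976), Alox15, a lipoxygenase of eosinophils and alternatively activated macrophages (0.974), and Mmp12, the macrophage elastase (0.968). Chil3 had 2590, 2748 and 1945 units on the Scnn1b-Tg arrays, against 1144, 1004 and 740 on the WT arrays. The 2 sets share no gene, but sets of 5 from 102 genes would seldom overlap by chance, so this does not set the 2 patterns apart.

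**Figure D4:**
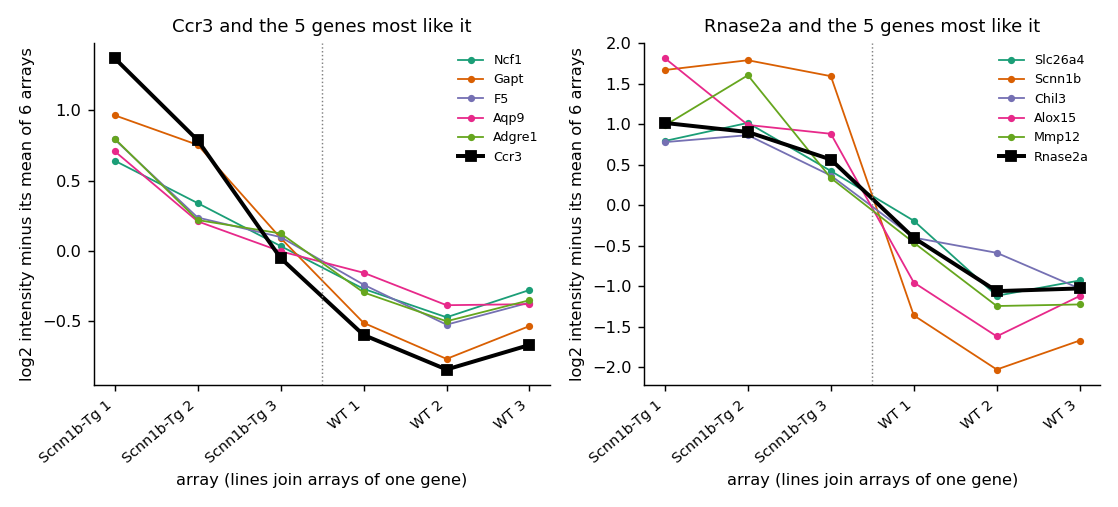
Log2 intensity minus each gene's mean over 6 arrays (y axis) by array (x axis) for Ccr3 (left) and Rnase2a (right) in black and the 5 genes of highest Pearson's r to each in colour. All 5 genes most like Ccr3 are highest on Scnn1b-Tg replicate 1, while 4 of the 5 most like Rnase2a are highest on Scnn1b-Tg replicate 2.

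Other genes of eosinophil biology were described from lists by role, beside the median of 0.0052 and the 3.96% of genes higher at an unadjusted p under 0.05. None was called in limma at the adjusted threshold. Of 16 further recruitment and adhesion genes 11 were higher in Scnn1b-Tg lung, 4 of them at an unadjusted p under 0.05, with a median log2 fold change of 0.08. Itgb7, the β7 integrin chain, gave 0.28 ± 0.08 (SE), Selplg, the selectin ligand PSGL-1, 0.26 ± 0.05 and Itga4, the α4 integrin chain, 0.26 ± 0.13. Ccl5 and Ccl7, other CCR3 ligands, gave 0.02 ± 0.07 and 0.13 ± 0.07, both named after their values were seen.

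Of 19 growth, signalling and transcription genes 16 were higher, 3 at an unadjusted p under 0.05, with a median of 0.07. Csf2rb, the β chain shared by the receptors of IL-5, IL-3 and GM-CSF, gave 0.31 ± 0.10, its mouse paralog Csf2rb2 0.29 ± 0.08 and the kinase-like adaptor Trib1 0.23 ± 0.08 (log2 fold change ± SE). The 2 receptor chains are near-identical copies whose probes may not tell them apart. Gata1, the lineage factor, gave 0.03 ± 0.08 and was named after its value was seen.

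Of 13 further granule and effector genes 11 were higher, 4 at an unadjusted p under 0.05, with a median of 0.21. Alox15 had 523, 295 and 274 units on the Scnn1b-Tg arrays, against 76.7, 48.4 and 68.3 on the WT arrays, a log2 fold change of 2.46 ± 0.27 (SE; limma adjusted p = 0.109). It was the second largest among all genes, after Scnn1b. Ncf1 gave 0.68 ± 0.15 and Alox5ap, the activator of 5-lipoxygenase, 0.60 ± 0.08, and both are also expressed by neutrophils and macrophages.

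Of 9 upstream type 2 signals 7 were higher, 1 at an unadjusted p under 0.05, with a median of 0.09. Gata3, the factor of type 2 lymphoid cells, gave 0.27 ± 0.09, the alarmin Il33 0.14 ± 0.11 and Il17rb, a receptor chain of IL-25, 0.14 ± 0.06 (log2 fold change ± SE). Il4 and Il13 gave 0.06 ± 0.06 and 0.09 ± 0.08, beside the 0.05 ± 0.05 of Il5, and were named after their values were seen.

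Markers of other cells that share these genes were listed too. Among all genes 53.2% were higher in Scnn1b-Tg lung, 3.96% were higher at an unadjusted p under 0.05, and 879 of 19935 lay wholly below WT. All 10 interstitial and monocyte-derived macrophage markers measured were higher in Scnn1b-Tg lung, 7 of them at an unadjusted p under 0.05, with a median of 0.47. Their summed intensity was 935 to 1095 on the Scnn1b-Tg arrays and 689 to 743 on the WT arrays. Itgam, the CD11b chain that eosinophils also carry, gave 0.91 ± 0.15, Adgre1 0.76 ± 0.17 and the monocyte chemokine receptor Ccr2 0.66 ± 0.17 (log2 fold change ± SE). Of 13 mast cell and basophil markers 8 were higher, with a median of 0.0086 and sums of 857 to 887 units in Scnn1b-Tg and 842 to 894 units in WT lung. Of these 6 averaged under 25 units, among them the defining markers Mcpt8, Ms4a2 and Fcer1a. Hdc gave 0.23 ± 0.07, Cpa3 0.12 ± 0.06 and Cma1 0.08 ± 0.06. Of 11 neutrophil markers 6 were higher, with a median of 0.01 and sums of 739 to 995 units in Scnn1b-Tg and 511 to 646 units in WT lung. Retnlg, at 1.38 ± 0.35, carried that difference: without it the sums were 431 to 494 units in Scnn1b-Tg and 417 to 468 units in WT lung, which overlap. Ltf gave 0.28 ± 0.10, and Mmp8 gave -0.12 ± 0.05 and lay wholly below WT. Of 10 T cell and type 2 lymphoid markers 7 were higher, with a median of 0.13 and sums of 536 to 558 units in Scnn1b-Tg and 486 to 516 units in WT lung, led by Il7r at 0.41 ± 0.09 and Icos at 0.30 ± 0.10. Of 9 airway epithelium markers 5 were higher, with a median of 0.02 that covers large values of both signs. The goblet cell genes Clca1 and Muc5b gave 1.11 ± 0.53 and 0.57 ± 0.20, and both overlapped between genotypes. The mucin gene Muc5ac gave 0.37 ± 0.09 and was the only marker of this list wholly above WT. The club cell gene Cyp2f2 gave -0.48 ± 0.08 and lay wholly below WT, as did Scgb1a1 at -0.31 ± 0.07. At an unadjusted p under 0.05 in limma, 1 mast cell and basophil, 2 neutrophil, 3 T cell and type 2 lymphoid and 2 airway epithelium markers were higher. At that p 1 neutrophil and 2 airway epithelium markers were lower, as were 409 of all 19935 genes. The part of all these cells in the values of the 9 genes was not tested.

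**Figure D5:**
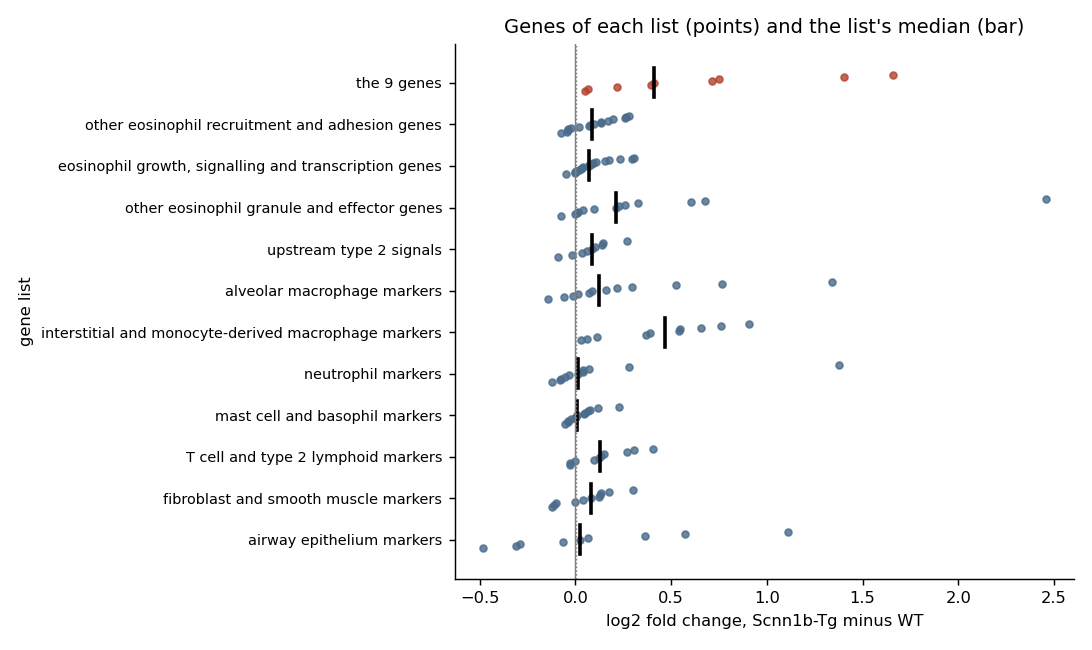
Log2 fold change of Scnn1b-Tg minus WT for the genes of each list (points) with the list's median (black bar), and lines at 0 and at the median of all genes. The 9 genes have a median of 0.41 and the interstitial and monocyte-derived macrophage markers 0.47, while mast cell and basophil markers centre on 0.0086.

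The calls of 3 genes changed with the processing. Ccl11, Ccl24 and Rnase2a passed the adjusted threshold with the 6645 dimmest genes left out (adjusted p = 0.0225, 0.00846 and 0.00522 in limma), where 0.286% of genes were called higher. That filter used the mean over all 6 arrays. Ccl24 and Rnase2a, with WT means of 30.9 and 28.1, stayed in through their higher Scnn1b-Tg values. Their calls under this filter are therefore not separate evidence. All 3 genes also passed with an intensity trend and robust variance (0.181% called higher) and with 16 subtracted from every intensity (0.115%). Ccr3, Siglecf, Il5ra, Prg2, Il5 and Epx passed in none of those of the 16 alternatives that tested them, and in each alternative all members tested had a positive log2 fold change.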

How the data were processed

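Total RNA of mouse lung was extracted with Trizol and hybridised to Affymetrix whole-transcript arrays, per the labels' protocols. The deposited values are intensities on a linear scale, made by the authors with RMA per the submitters' processing notes, with version and settings not given in the sources used here. Whether a constant was added is not stated. The number of arrays limits the precision.

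Of 28815 probe sets 21780 had exactly 1 symbol, and the brightest per gene left 19935 genes. The fit used limma 3.58.1 (R 4.3.3) on log2 intensity (genotype as the only term, two-sided, Benjamini-Hochberg over all genes, called at an adjusted p under 0.05). The fit was tested on simulated data. Errors are SE of the fit or SD of 3 arrays. The 9 genes and 12 context lists (133 of 151 genes measured) were chosen with earlier results of these data known. Named from each list were called genes or otherwise the 3 largest absolute log2 fold changes. A few other list genes were named after their values were seen (Marco, Car4, Ccl5, Ccl7, Gata1, Il4, Il13, Rnase2b, Ear6, Ear14, Prg3, S100a8, Scgb1a1, Muc5ac). A value under 25 counted as dim, as did 16.1% of genes. No batch is given in the labels. Of the red cell list 2 genes were measured, with a median log2 fold change of -0.28. Alternatives were other normalizations, filters, variance priors, array weights, replicate number as a block, 16 subtracted, and arrays left out.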

Additional observations from a re-analysis of the deposited data

How the results depend on the processing

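All 16 alternatives kept a positive log2 fold change for every member tested, and 5 of them called a member. With the 6645 dimmest genes left out 39 genes were called, 3 members and 6 context genes. Of those members, Ccl24 and Rnase2a passed that filter through their Scnn1b-Tg values. With an intensity trend and robust variance these were 36, 3 and 5, and with 16 subtracted 23, 3 and 4. The members were Ccl11 (log2 fold change 0.75, 0.75 and 1.02 in that order of settings), Ccl24 (0.72, 0.72 and 1.23) and Rnase2a (1.66, 1.66 and 2.71). The cause of these changes was not tested. With single arrays left out 0 to 5 genes and 0 to 1 members were called, and the log2 fold change of Ccl11 ran from 0.67 to 0.89. Without WT replicate 3 Scnn1b was not called (adjusted p = 0.0559). Without both WT replicate 2 and Scnn1b-Tg replicate 3, 6 genes and 1 member were called, Ccl11 at 0.89. With the replicate block 3 genes and 1 context gene were called, and Rnase2a had an adjusted p of 0.0516. The labels do not say whether arrays of the same replicate number were paired. Deviations of same-numbered arrays correlated at only 0.03 to 0.04, yet all 6 arrays correlated best with their own number. Correlations this small cannot decide whether the numbers mark pairs. Subtracting 16 moved the log2 fold changes of Il5, Il5ra, Epx, Ccl24 and Rnase2a by over 1.5 times.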
